A study of Homo sapiens with 6 samples.

Results

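*IFI6*, *IFI27*, *IFI27L1* and *IFI27L2*, which encode the small hydrophobic proteins of the ISG12 family, are described here in SW480 cells with and without a plasmid for MDM4, a relative of MDM2 that binds p53. These 4 genes of 19225 in the expression table were chosen by name from results of this same contrast, so their differences between the groups are a description and carry no test. SW480 cells are an established line of human colon cancer, and the labels give their genotype as mutant p53. The 3 control and the 3 MDM4 libraries were labelled as the same cells after plasmid transfection, which the study's methods give as transient, and the labels do not say which plasmid the controls carried. The second group is labelled "exercised" and was read as MDM4 because it is the only group besides control. The labels name no separate cultures, so the spread between libraries may be technical.

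The proteins of this family sit largely in membranes, chiefly of mitochondria, and for some members of the endoplasmic reticulum or nuclear envelope. *IFI6* and *IFI27* are classical targets of type I interferon, which acts through its receptor, the kinases JAK1 and TYK2 and a transcription factor complex with IRF9 that binds the interferon-stimulated response element (ISRE) in promoters. IFI6 is known to protect cells from mitochondrial apoptosis and IFI27 to favour it, whereas the roles of IFI27L1 and IFI27L2 are less well known.

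*IFI6* (ENSG00000126709.14) lies on the minus strand of chromosome 1 from 27666061 to 27672218 in GENCODE release 29 on GRCh38, where 1 antisense gene, AL445490.1, overlaps it. The other 3 members form a cluster on chromosome 14, in the order *IFI27L1* (ENSG00000165948.10, plus strand, 94081282 to 94103846), *IFI27* (ENSG00000165949.12, plus strand, 94104836 to 94116698) and *IFI27L2* (ENSG00000119632.3, minus strand, 94127779 to 94130253). Their coding sequences hold 130 codons in *IFI6*, 122 in *IFI27*, 104 in *IFI27L1* and 130 in *IFI27L2*. *IFI27* and *IFI27L2* were the most alike, with 86% identity over aligned coding bases, and *IFI6* stood further off at 70.7% to 75.3% from the others. The longest stretch of exact identity between transcripts of different members was 31 bases for *IFI27* and *IFI27L2*. Whether reads were counted by strand is not given in the sources used here, so reads of *IFI6* and of its antisense gene cannot be told apart.

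The promoter windows of RefSeq on GRCh38.p14, from 250 bases before to 50 after each start site, matched all 4 members in 5 windows. The stretches of *IFI6*, *IFI27* and *IFI27L2* are shown, and that of *IFI27L1* is not printed. The members that stood low with MDM4 and those that did not differ in their motif matches. Any part of these matches in their levels was not tested. Capitals mark each ISRE match, spelled GAAANNGAAA on either strand, and the sequences run 5′ to 3′ on the gene's strand and leave out annotated exons.
IFI6, chr1:27672219-27672442, minus strand: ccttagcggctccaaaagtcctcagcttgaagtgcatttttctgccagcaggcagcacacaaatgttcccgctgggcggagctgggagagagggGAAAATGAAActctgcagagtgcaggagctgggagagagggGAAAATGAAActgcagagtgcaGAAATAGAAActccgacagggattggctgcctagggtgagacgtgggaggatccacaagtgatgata
IFI27, chr14:94110486-94110677, plus strand: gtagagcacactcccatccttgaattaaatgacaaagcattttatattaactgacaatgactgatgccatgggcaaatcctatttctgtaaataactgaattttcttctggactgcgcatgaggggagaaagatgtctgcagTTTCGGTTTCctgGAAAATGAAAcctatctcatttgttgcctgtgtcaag
IFI27L2, chr14:94129665-94129854, minus strand: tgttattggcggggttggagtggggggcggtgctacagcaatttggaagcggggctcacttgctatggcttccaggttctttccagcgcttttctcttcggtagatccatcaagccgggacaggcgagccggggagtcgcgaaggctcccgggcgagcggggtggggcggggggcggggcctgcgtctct
The *IFI6* window held 3 matches, from -156 to -147, -115 to -106 and -93 to -84 relative to the start site. Its first pair of matches belongs to a repeat of 29 bases whose copies lie 41 bases apart. In *IFI27*, 2 matches lay from -108 to -99, on the opposite strand, and from -95 to -86. A gamma-activated site, spelled TTCNNNGAA, ran from -101 to -93 in *IFI27* and overlapped both. A second start site of *IFI27* shares these matches. The windows of *IFI27L1* and *IFI27L2* held 0 matches to either motif. Among 35116 RefSeq windows of this length, 3.57% held at least 1 ISRE match, 0.259% at least 2, and 7.66% a gamma-activated site. A match is a stretch of letters and does not show that a factor binds there.

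**Figure D1:**
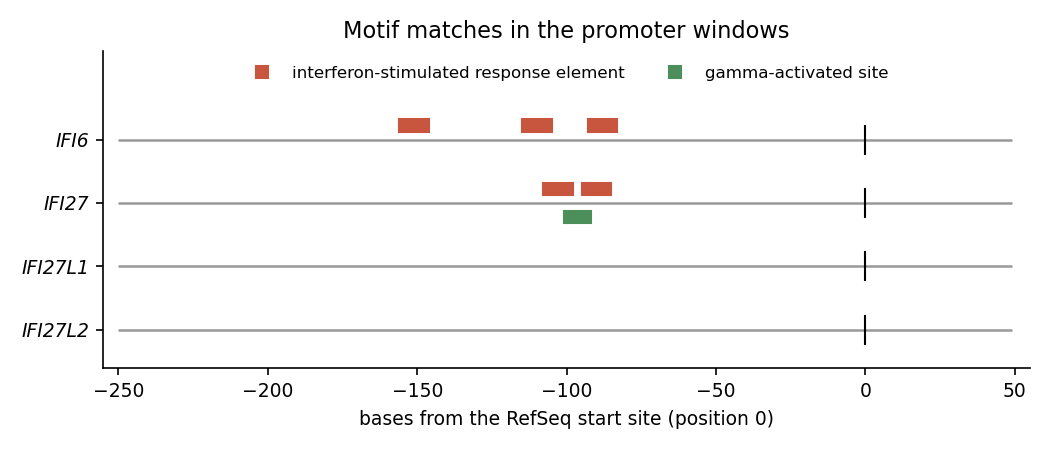
Positions of motif matches in the promoter windows of the 4 genes, in bases from the RefSeq start site, with the upstream start site shown for *IFI27*. Bars above each line are ISRE matches, 3 in *IFI6* and 2 in *IFI27*, the bar below is the gamma-activated site of *IFI27*, and the lines of *IFI27L1* and *IFI27L2* carry none.

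Expression was deposited as FPKM, the reads of a gene scaled by its length and by the reads of the library, so that levels can be compared between genes. The whole reads behind the values were recovered, between 32922574 and 44563041 per library. *MDM4* itself measured 6.35, 7.09 and 5.13 FPKM in the 3 controls and 188, 185 and 56.3 FPKM in the 3 MDM4 libraries, in replicate order. Replicate 3 stood apart in both groups. Deviations from the group means correlated across genes at 0.78 between control and MDM4 replicate 3. They correlated at -0.62 to -0.56 between replicate 3 of one group and replicates 1 and 2 of the other. Deviations within a group sum to 0, so negative values there follow from the positive one and are no further sign. Colon epithelial markers were present, with *EPCAM* at 156 to 167 FPKM and *KRT8* at 1550 to 1876 FPKM, but *KRT20*, *CDX1* and *LGALS4* were at most at 0.591 FPKM. Among the leukocyte markers, *PTPRC* was at most at 0.0142 FPKM, but *NCAM1* was at 6.39 to 9.37 FPKM and *CD68* at 4.26 to 5.01 FPKM. The others on that list were at most at 0.959 FPKM, in *LYZ*. Reads from fewer cells and less RNA per cell cannot be told apart in such bulk libraries.

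*IFI6*, the member known to protect from apoptosis, was the most abundant of the 4 in control replicates 1 and 2 and far lower in the other 4 libraries. Control replicates 1 to 3 measured 162, 170 and 21.3 FPKM and MDM4 replicates 1 to 3 measured 15.2, 16.7 and 19.6 FPKM. The 2 high libraries were both controls, while control replicate 3 lay next to the MDM4 libraries. These levels came from 6144, 5133 and 728 reads in control and 470, 492 and 550 reads in MDM4 libraries. The groups did not overlap, but the lowest control exceeded the highest MDM4 library by only 1.09-fold. The exact Poisson 95% counting intervals of those 2 libraries, both replicate 3, ran from 19.8 to 22.9 FPKM and from 18 to 21.3 FPKM and overlapped. Such intervals cover counting error only, since reads amplified by PCR are not independent molecules. The control mean was 118 ± 83.5 FPKM (SD, n = 3), the MDM4 mean was 17.2 ± 2.24 FPKM (SD, n = 3), and the log2 difference was -2.29 (standard error 0.72).

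*IFI27*, the member known to favour apoptosis, showed the same arrangement of libraries at a lower level. Control replicates 1 to 3 measured 54.6, 53.5 and 12.9 FPKM, against 10.3, 7.42 and 9.61 FPKM in MDM4 replicates 1 to 3. Again control replicates 1 and 2 were high, and the groups did not overlap, by 1.25-fold between control replicate 3 and MDM4 replicate 1. The reads numbered 1547, 1207 and 328 in control and 238, 163 and 201 in MDM4 libraries. The counting intervals of the nearest libraries, from 11.5 to 14.4 FPKM and from 9.06 to 11.7 FPKM, overlapped. The control mean was 40.3 ± 23.8 FPKM (SD, n = 3) and the MDM4 mean 9.12 ± 1.52 FPKM (SD, n = 3), with a log2 difference of -1.88 (standard error 0.51).

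*IFI27L1*, the member nearest to *IFI27* on its left, did not show this arrangement. The controls measured 11.5, 9.73 and 13.4 FPKM and the MDM4 libraries 8.34, 9.95 and 10 FPKM in replicates 1 to 3, from 210 to 374 reads. The groups overlapped, and control replicate 3 was the highest library. The means were 11.5 ± 1.85 and 9.43 ± 0.951 FPKM (SD, n = 3 each), and the log2 difference was -0.28 (standard error 0.15).

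*IFI27L2*, the member on the other side and the most like *IFI27* in coding sequence, was nearly level. The controls measured 26.3, 25.8 and 30 FPKM and the MDM4 libraries 26.1, 22.4 and 27 FPKM in replicates 1 to 3, from 363 to 564 reads. The groups overlapped, with means of 27.4 ± 2.3 and 25.2 ± 2.45 FPKM (SD, n = 3 each) and a log2 difference of -0.12 (standard error 0.10).

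**Figure D2:**
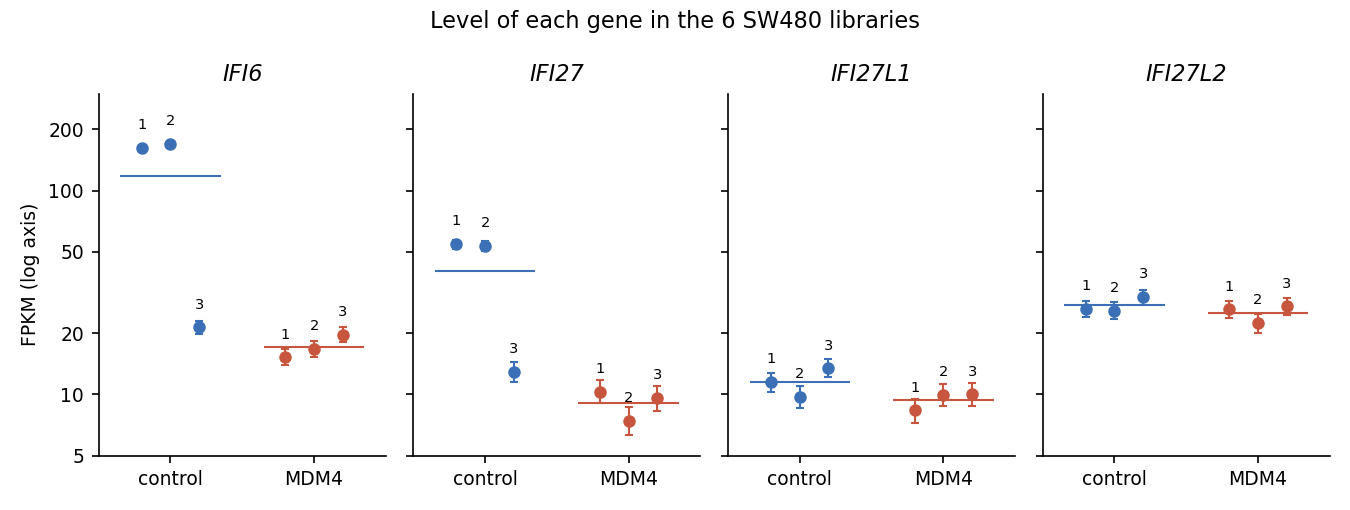
FPKM of each gene on a log axis in the 3 control (blue) and 3 MDM4 (red) libraries, with the replicate number above each point, its exact Poisson 95% counting interval as a bar and the group mean as a line. Control replicates 1 and 2 of *IFI6* (162 and 170 FPKM) and *IFI27* (54.6 and 53.5 FPKM) lie well above the other 4 libraries, and the groups of *IFI27L1* and *IFI27L2* overlap.

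The spread in the control group lay mainly in *IFI6* and *IFI27*. On the log2 scale the SD over the 3 controls was 1.70 for *IFI6* and 1.19 for *IFI27*, the 9th and 31st highest of the 12884 genes that averaged 0.5 FPKM or more. It was 0.23 for *IFI27L1* and 0.12 for *IFI27L2*. In the MDM4 libraries the SD was between 0.14 and 0.25 for the 4 members. Control replicate 3 was 7.77-fold below the mean of control replicates 1 and 2 for *IFI6* and 4.2-fold below it for *IFI27*. For *IFI27L1* and *IFI27L2* the same library was higher, by 0.34 and 0.20 on the log2 scale.

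Together the 4 genes summed to 254, 259 and 77.7 FPKM in control replicates 1 to 3 and to 60, 56.5 and 66.3 FPKM in MDM4 replicates 1 to 3. *IFI6* made up 63.7% and 65.6% of the sum in control replicates 1 and 2, but 27.5% in control replicate 3 and 25.4% to 29.6% in the MDM4 libraries. The share of *IFI27L2* went from 10.3% and 9.98% to 38.6% in control replicate 3 and 39.7% to 43.5% in the MDM4 libraries. Thus the order of levels was *IFI6*, *IFI27*, *IFI27L2* and *IFI27L1* in control replicates 1 and 2, and *IFI27L2* came first with *IFI6* next in the other 4 libraries. *IFI27* and *IFI27L1* took the last places there and changed order between libraries, with *IFI27* ahead in MDM4 replicate 1. The ratio of *IFI6* to *IFI27* also varied, from 2.96 and 3.17 in control replicates 1 and 2 to 1.66 in control replicate 3 and 1.47 to 2.25 in the MDM4 libraries.

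**Figure D3:**
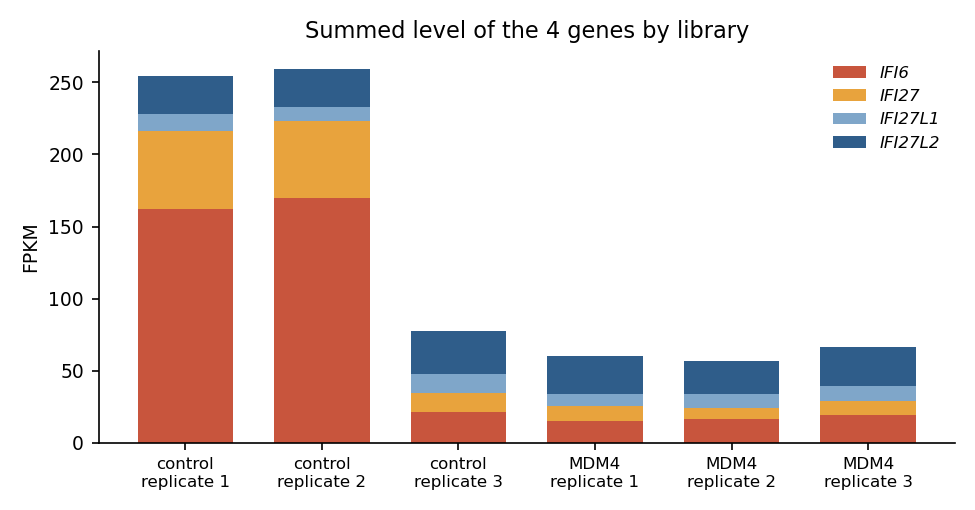
Summed FPKM of the 4 genes in each library, stacked by gene. The sum is 254 and 259 FPKM in control replicates 1 and 2 and 56.5 to 77.7 FPKM in the other 4 libraries, and the difference lies in the *IFI6* and *IFI27* segments.

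Between libraries of the same number, *IFI6* was 10.6-fold lower with MDM4 in replicate 1, 10.2-fold lower in replicate 2 and 1.09-fold lower in replicate 3. *IFI27* was 5.29-fold, 7.21-fold and 1.34-fold lower in replicates 1 to 3. Both were thus lower in 3 of 3 pairs, which any pairing must give because their groups did not overlap. Most of the difference lay in replicates 1 and 2. *IFI27L1* had log2 differences of -0.46, 0.03 and -0.42 in replicates 1 to 3, and *IFI27L2* had -0.01, -0.20 and -0.15. *MDM4* was 29.7-fold, 26.1-fold and 11.0-fold higher in the same pairs, so the pair with the smallest rise in *MDM4* was also that with the smallest differences of *IFI6* and *IFI27*. Against the mean of replicates 1 and 2 of its group, control replicate 3 was at -2.95 for *IFI6* and -2.06 for *IFI27* on the log2 scale. MDM4 replicate 3 was at 0.30 and 0.13, so the small differences of this pair lay in its low control. Any part of the *MDM4* level in them was not tested.

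**Figure D4:**
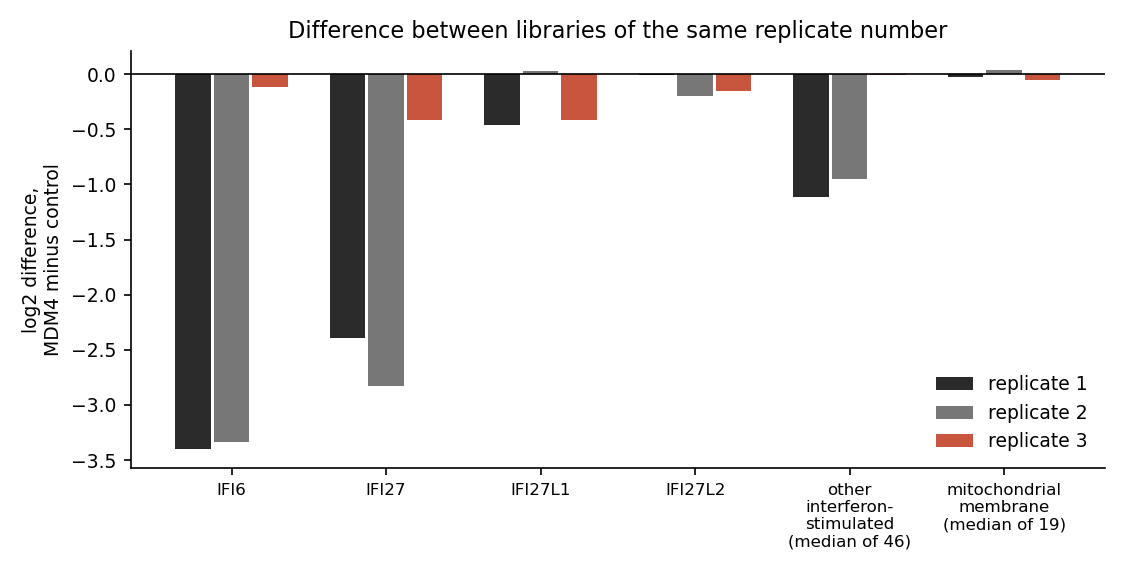
The log2 difference, MDM4 minus control, between libraries of the same replicate number for the 4 genes, and the median over 46 other interferon-stimulated genes and over 19 mitochondrial membrane and import genes. The bars of *IFI6* reach -3.40 and -3.34 in replicates 1 and 2 and -0.12 in replicate 3, and the medians of the mitochondrial genes lie between -0.05 and 0.04.

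In limma on log2(FPKM + 0.1) over all 6 libraries, a gene was called at a Benjamini-Hochberg adjusted p under 0.05 and an absolute log2 difference over 1. None of the 4 members was among the genes called, and 0 of 12884 genes (0%) were called in all, with 222 at an unadjusted p under 0.05. *MDM4* itself was not called either, at a log2 difference of 4.33 (standard error 0.43) and with groups that did not overlap. The rule thus missed even the transfected gene. Voom on the recovered reads also called 0 genes, with 233 at an unadjusted p under 0.05. A block for the replicate number gave 2 genes (0.0155%) and 0 of 4 members called. Voom with the block called 15 genes (0.116%), among them *IFI6* and *IFI27*. Over replicates 1 and 2 alone, 37 of 12746 genes (0.290%) were called, again with *IFI6* (log2 difference -3.37, standard error 0.08) and *IFI27* (-2.61, standard error 0.13). Without control replicate 3 both were among 16 of 12838 genes called (0.125%). All MDM4 libraries lay below all controls in 484 genes (3.76%), which include *IFI6* and *IFI27*. Because the members were chosen from this contrast, nothing is read from these counts for them. By size of the log2 difference, *IFI6* was 3rd, *IFI27* 7th, *IFI27L1* 470th and *IFI27L2* 2184th from the most lowered of the 12884 genes.

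The neighbours of the members on the chromosome were at nearly equal levels in both groups. On the left of the chromosome 14 cluster, *OTUB2*, a deubiquitinase, had a log2 difference of 0.06 (standard error 0.098), and *DDX24*, an RNA helicase, had -0.03 (standard error 0.0564). On the right, *PPP4R4*, a phosphatase regulator, had 0.13 (standard error 0.183), while *SERPINA10* and *SERPINA6* were below the filter of 0.5 FPKM. *CCDC197* was not analysed here. Within the cluster, *IFI27* had a log2 difference of -1.88, and its flanking members *IFI27L1* and *IFI27L2* had -0.28 and -0.12. Around *IFI6*, *WASF2*, *AHDC1*, *FAM76A*, *STX12* and *PPP1R8* had log2 differences between -0.03 and 0.20, and *FGR* was below the filter.

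**Figure D5:**
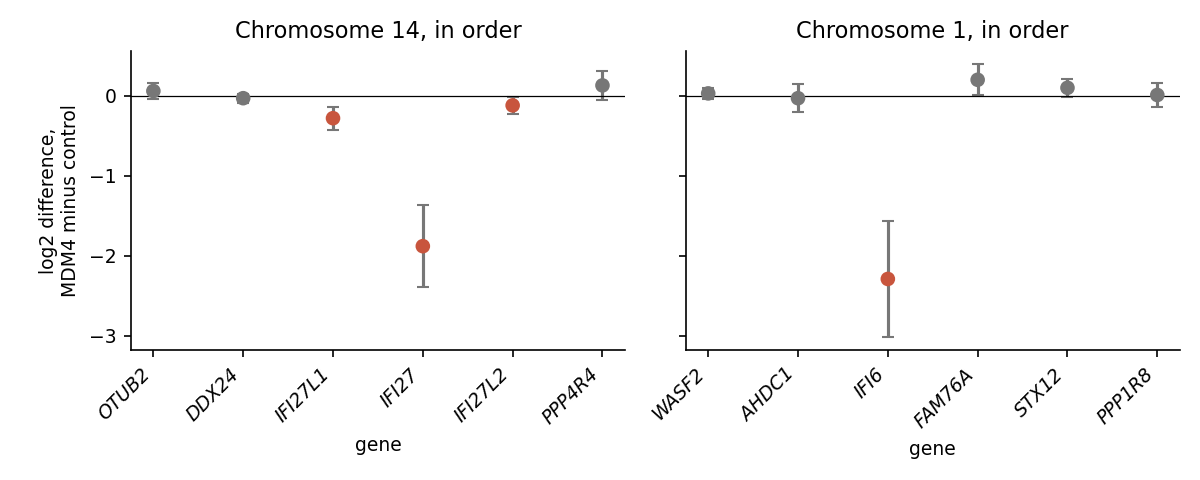
The log2 difference, MDM4 minus control, of the members (red) and of their tested protein-coding neighbours (grey) in chromosomal order, with standard errors as bars. *IFI27* (-1.88) and *IFI6* (-2.29) lie far below the adjacent genes, which lie between -0.28 and 0.20.

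Across the 6 libraries the log2 levels of *IFI6* and *IFI27* had a Pearson r of 0.986, with control replicates 1 and 2 apart from the rest. For *IFI27L1* and *IFI27L2* it was 0.557, and between the pairs it was 0.029 to 0.186. These coefficients describe 6 libraries that share their groups and the split of replicate 3. The genes most like *IFI6* were the antiviral GTPase *MX1* (r = 0.9973), *ST7L* (r = 0.9964) and *IFIT2* (r = 0.9941). *MX1* was at 30.6, 30.4 and 5.65 FPKM in control and 3.86, 3.75 and 5.26 FPKM in MDM4 libraries, while *ST7L* spanned only 2.22 to 2.74 FPKM. Those most like *IFI27* were the MHC class I gene *HLA-B* (r = 0.9948), the apoptosis factor *XAF1* (r = 0.9934) and the matrix protein gene *TGFBI* (r = 0.9930). The list of interferon-stimulated genes held 46 of the 12884 tested genes. Of the other tested genes with r over 0.95, 18 of 42 for *IFI6* and 15 of 33 for *IFI27* belonged to this list. For *IFI27L1* this was 0 of 58, led by *PTPRA*, *NONO* and *ANAPC5* (r = 0.9955, 0.9912 and 0.9905). For *IFI27L2* it was 0 of 39, led by *ZNF362*, *KIF26B* and *CD274* (r = 0.9972, 0.9854 and 0.9778).

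The interferons themselves, the ligands that switch on *IFI6* and *IFI27*, had few reads. *IFNA2*, *IFNK* and *IFNG* had 0 reads in every library and *IFNA1* had 1 read in all. *IFNL2* had 43, 55 and 0 reads in control and 0, 0 and 1 reads in MDM4 replicates 1 to 3. *IFNL3*, nearly identical to *IFNL2* so that reads may be shared, had 57, 51 and 0 against 2, 0 and 4 reads. *IFNL1* had 9, 11 and 0 reads in control and 0 in each MDM4 library, and *IFNB1* had 1, 3 and 0 against 0 in each. All 4 thus had reads in the control libraries where *IFI6* and *IFI27* were high and 0 in control replicate 3. *IFNE*, an interferon made constitutively by epithelia, ran the other way, with 4, 4 and 18 reads in control and 23, 25 and 26 reads in MDM4 libraries. Their part in the levels of *IFI6* and *IFI27* was not tested.

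Receptors and kinases of the pathway were near level. Of 9 tested, 4 were higher and 5 lower with MDM4, 0 were called, and the median log2 difference was -0.03 against -0.01 over all tested genes. *IFNAR1*, a type I interferon receptor subunit, had 0.01 (standard error 0.10), *JAK1* had 0.04 (standard error 0.11) and *TYK2* had -0.16 (standard error 0.12). Among the STAT and IRF transcription factors, 8 of 9 were lower and 0 were called, with a median of -0.18. *IRF9*, the DNA-binding part of the ISRE complex, was at 19.6, 17.2 and 6.98 FPKM in control and 3.8, 4.76 and 7.12 FPKM in MDM4 replicates 1 to 3. It was thus high in the same 2 libraries as *IFI6*, but slightly higher with MDM4 in replicate 3, and its log2 difference was -1.38 (standard error 0.40). *STAT2* had -0.12 (standard error 0.26) and *IRF7* had -0.82 (standard error 0.24). Of 7 feedback inhibitors, 3 were higher and 4 lower with a median of -0.01, and *USP18*, which is itself interferon-induced, had -0.84 (standard error 0.27).

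Of 46 other interferon-stimulated genes tested, 44 were lower with MDM4 and 0 were called, beside 6803 lower of all 12884 tested genes. Their median log2 difference was -0.70 against -0.01 over all tested genes. All MDM4 libraries lay below all controls in 15 of them, beside 3.76% of all tested genes. In replicates 1 to 3 their medians were -1.11, -0.95 and -0.01, so *IFI6* and *IFI27* lay below it in every pair. Over replicates 1 and 2 alone, 47 of 47 were lower and 21 were called lower, beside 36 of all 12746 genes. Without control replicate 3, 10 of 47 were called lower, beside 15 of all 12838 genes. With the replicate block, limma on log2 FPKM called 0 of the 46 as lower, beside 1 of all 12884 genes. Voom on recovered reads with the block called 8 as lower, beside 13 of all 12884 genes. Of 7 colon epithelial markers tested, 6 were lower with MDM4 and 0 were called, with a median of -0.09. The largest differences were in *VIL1*, at -0.54 (standard error 0.23), and *CDX2*, at -0.22 (standard error 0.11). *CDH1* was higher, at 19.6 to 21.7 FPKM in control and 21.9 to 23.6 FPKM in MDM4 libraries. The groups did not overlap in *EPCAM*, *CDX2* and *CDH1*, beside 484 lower and 399 higher of 12884 tested genes. The summed level of all 10 colon epithelial markers was 4544 to 4902 FPKM in control and 4221 to 4520 FPKM in MDM4 libraries. It came mostly from keratin genes such as *KRT8*, at -0.07 (standard error 0.07), and *KRT18*, at -0.11 (standard error 0.06). Any part of this sum in the levels of *IFI6* and *IFI27* was not tested. Sums of leukocyte markers, 12.9 to 15.7 against 12.2 to 15.9 FPKM, overlapped and came mostly from *NCAM1* and *CD68*. Sums of stromal and vessel markers, 2.12 to 4.56 against 2.28 to 4.58 FPKM, also overlapped.

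The ISRE matches were set beside the differences of the 10022 other tested genes with a promoter window. Of 35 genes with 2 or more matches, 26 were lower with MDM4 (74.3%) and the median log2 difference was -0.14, whereas 52.8% of 9647 genes without a match were lower with a median of -0.01. Of the 7 genes with 3 or more matches, as in *IFI6*, 4 were lower (57.1%) with a median of -0.14 and 0 below -1, beside 52.9% lower of all 10022. With 1 match the median was -0.01 over 340 genes. The 23 genes with 2 or more matches outside the interferon-stimulated list had a median of -0.05, with 15 lower and 0 below -1. In that list, 24 genes with a match had a median of -0.80 and 14 without had -0.60.

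Genes that act with the members, or in the same compartment, were mostly near level, apart from *TNFRSF10D*. Of 4 known partners, the chaperone *HSPA5*, which binds IFI6, had a log2 difference of 0.01, and *NR4A1*, *SKP2* and *XPO1*, which act with IFI27, had -0.09, 0.09 and 0.09. Of 5 genes for the death ligand TRAIL and its receptors, a pathway both *IFI6* and *IFI27* are known to modify, 4 were higher with MDM4 with a median of 0.13. *TNFSF10*, the ligand, had -0.26 (standard error 0.27), and the decoy receptor *TNFRSF10D* had 0.53 (standard error 0.20). *TNFRSF10D* was at 20, 18.8 and 33.5 FPKM in control and 33.8, 32.3 and 34.7 FPKM in MDM4 replicates 1 to 3. Of 15 mitochondrial apoptosis genes such as *BAX*, *BCL2L1* and *CYCS*, 5 were higher and 10 lower with a median of -0.01. Of 19 mitochondrial membrane and import genes, 7 were higher and 12 lower with a median of -0.02. None of these genes was called, at a count of 0 in each list.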

How the data were processed

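Poly(A) RNA of 6 SW480 libraries, 3 control and 3 MDM4, was enriched with oligo(dT) and sequenced. The authors deposited FPKM values by gene symbol, 19225 in all, of which 2036 were 0 in every library. The aligner, counter and annotation are not given in the sources used here. Column letters G and M with a number were read as control and MDM4 replicates. The members and lists were chosen with earlier results of these data known.

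Reads were recovered from the FPKM steps as whole numbers within 0.01 for 17189 of 17189 genes above 0 (100%). Genes that averaged 0.5 FPKM or more were tested with limma 3.58.1 in R 4.3.3 (eBayes with trend) on log2(FPKM + 0.1), which understates changes of low genes, with p-values adjusted by Benjamini-Hochberg over 12884 genes. The fit and the recovery were tested on simulated data. Depth limits the members only through their reads, given as exact Poisson intervals.

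Named genes were *MDM4*, the members, the 3 genes most correlated with each, list genes and the 3 protein-coding neighbours on each side. For the larger lists, the rule took up to 4 genes with the largest differences, and *EPCAM*, *KRT8*, *KRT20*, *CDX1*, *LGALS4*, *CDH1*, *PTPRC*, *BAX*, *BCL2L1* and *CYCS* were named beyond it as markers or examples after their values were seen. Lists were described by counts and medians, without a test. Annotation was GENCODE release 29 on GRCh38, and promoters came from RefSeq on GRCh38.p14, read with Python 3.11.15, Biopython 1.88 and pandas 2.3.3.

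Same-numbered libraries deviated together, with correlations across genes of 0.46, 0.45 and 0.78 in replicates 1 to 3. The numbers were taken as pairs, which the labels do not state. Differently numbered replicates 1 and 2 of the groups correlated about as much, at 0.46 and 0.44. The data thus set replicate 3 apart but do not pair replicates 1 and 2 by number. The 18 alternatives were other pseudocounts (0.5 and 1), filters and scalings, eBayes without trend, the replicate block, voom, replicates 1 and 2 alone, and each library left out.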

Additional observations from a re-analysis of the deposited data

How the results depend on the processing

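The log2 differences of the 4 members kept their direction under all 18 alternatives, from -3.37 to -1.78 for *IFI6*, -2.61 to -1.53 for *IFI27*, -0.40 to -0.17 for *IFI27L1* and -0.17 to -0.04 for *IFI27L2*, and the median of the other interferon-stimulated genes lay between -0.99 and -0.53. The count of genes called, 0 with all 6 libraries and no block, was the same under 13 alternatives. With the replicate number as a block it was 2, 1 higher and 1 lower, and *IFI6* and *IFI27* were not called. Voom on recovered reads, with the replicate block, gave 15, 2 higher and 13 lower, and over replicates 1 and 2 alone it was 37, 1 higher and 36 lower. In limma on log2 FPKM the block changed no other call, while voom called *IFI6* and *IFI27* with the block and not without it. Leaving out each library in turn gave between 0 and 16 genes, with 16 (1 higher and 15 lower) without control replicate 3 and 1, higher, without MDM4 replicate 3. In these fits *IFI6* lay between -3.27 and -1.78, *IFI27* between -2.57 and -1.53, *IFI27L1* between -0.40 and -0.17, *IFI27L2* between -0.17 and -0.04, and the interferon-stimulated genes between -0.94 and -0.53. The cause was not tested. The differences of *IFI6* and *IFI27* rest on control replicates 1 and 2, whereas *IFI27L1* and *IFI27L2* came nearer to 0, at -0.17 and -0.05, without control replicate 3. Single MDM4 libraries moved them about as much. *IFI27L1* was at -0.20 without MDM4 replicate 1, and *IFI27L2* at -0.04 without MDM4 replicate 2.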
